A study of Homo sapiens with 9 samples.

Results

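GNB1L and 5 genes that lie beside it on the long arm of chromosome 22, in band 22q11.2, were followed through the parental and clonal cultures of K562, a human erythroleukaemia line derived from chronic myeloid leukaemia. The members were GNB1L, TBX1, GP1BB, TXNRD2, ARVCF and DGCR8, which are 6 of 63677 gene IDs in the deposited count lists, found by matching symbols to Ensembl IDs. GNB1L was chosen by its read counts, which were lower in clones with mutant SRSF2, so its own difference is given as a description with no test. The others were taken for their position, and the question put to them is whether they were lower together with GNB1L. Of the 6, 5 had reads and passed the filter on low counts, while GP1BB was at 0 counts in every library.

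The 9 libraries were 4 CRISPR-derived clones with the SRSF2 P95H substitution (P9, P15, P22 and P38), 4 CRISPR-derived clones with wild-type SRSF2 (W19, W33, W36 and W42, called WT here), and the parental line, also wild type for SRSF2. SRSF2 is a splicing factor of the SR family, and the series was made to compare splicing between these genotypes. Each clone gave 1 library, so the p-values measure the spread between clones of one cell line, and whether the clones came from separate editing experiments is not stated. The number of mutant alleles and the copy number of 22q11.2 in each clone were not analysed here.

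The 22q11.2 segment is best known from the deletion that causes DiGeorge and velocardiofacial syndromes. In it, one copy of a stretch that commonly includes the genes from DGCR6 to DGCR6L is lost. TBX1, a T-box transcription factor of the pharyngeal arches and heart, accounts for much of the heart defect. GNB1L encodes a protein of WD40 repeats related to G protein beta subunits, and it has been linked to the co-chaperones TELO2, TTI1 and TTI2, which help large kinases such as ATM, ATR and MTOR to mature. In K562 the BCR gene, further along the same band, is part of the amplified BCR-ABL1 fusion that drives the line.

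GNB1L and its neighbour RTL10, a gene derived from a retrotransposon, start at the same place. In the RefSeq promoter table (build GRCh38.p14, 250 bases before to 50 after each start) they have one and the same window, on the minus strand of chr22:19854825-19855124. It is shown because the 2 genes that share it differed in these cells. 2 more windows, described after the sequences, are shown for comparison. Capitals mark matches to the 6 motifs searched.

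GNB1L and RTL10: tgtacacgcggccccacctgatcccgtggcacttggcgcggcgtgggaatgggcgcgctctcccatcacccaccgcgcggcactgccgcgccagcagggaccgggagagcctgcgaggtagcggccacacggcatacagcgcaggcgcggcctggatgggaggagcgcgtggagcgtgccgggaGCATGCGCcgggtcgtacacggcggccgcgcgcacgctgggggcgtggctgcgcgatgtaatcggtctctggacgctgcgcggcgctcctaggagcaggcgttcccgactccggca
TBX1: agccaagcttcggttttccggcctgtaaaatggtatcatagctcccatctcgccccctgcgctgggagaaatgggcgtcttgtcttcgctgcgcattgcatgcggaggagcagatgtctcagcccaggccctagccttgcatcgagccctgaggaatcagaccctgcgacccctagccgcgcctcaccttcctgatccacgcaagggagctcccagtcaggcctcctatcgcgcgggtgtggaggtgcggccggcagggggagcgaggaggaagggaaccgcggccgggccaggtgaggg
TANGO2: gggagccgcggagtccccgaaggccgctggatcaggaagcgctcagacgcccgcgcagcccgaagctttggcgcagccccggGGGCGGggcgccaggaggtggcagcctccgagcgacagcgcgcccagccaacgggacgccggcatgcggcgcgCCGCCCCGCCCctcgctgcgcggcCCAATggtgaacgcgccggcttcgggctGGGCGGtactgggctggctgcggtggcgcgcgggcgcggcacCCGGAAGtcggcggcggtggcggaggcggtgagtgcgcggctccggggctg

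The other windows are those of TBX1 (plus strand, chr22:19756453-19756752), the neighbour on the other side, and of TANGO2 (plus strand, chr22:20020858-20021157). TANGO2 was the only tested neighbour whose level, scaled for library size, was higher in every P95H clone than in any WT clone. Both strands were searched for the NRF1 word GCATGCGC, the GC box, written GGGCGG, and the CCAAT box. The search also took in the TATA box as TATAAA, the core word of ETS factors, which reads CCGGAAG, and the word of GATA factors, which reads AGATAA. The GCATGCGC of the GNB1L and RTL10 window begins at base 185 of 300, and 3.02% of 34943 promoter windows hold this word. The TBX1 window held none of the 6 words. The TANGO2 window had 4 GC boxes, a pair of which overlap by 1 base, 1 CCAAT and 1 CCGGAAG, words found in 44.9%, 34.6% and 10.2% of all windows. The GNB1L and RTL10 window had 44 CpG, more than 95.8% of the windows, the TBX1 window 22 and the TANGO2 window 48. These matches describe the letters only.

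Reads counted in genes came to 24546255 to 35477328 per library, and levels are given in CPM, the read count of a gene scaled to a common library size with TMM normalization. K562 identity was visible in the erythroid markers, all 10 of which averaged over 1 CPM, with summed levels of 2979 to 7389 CPM in P95H clones, 3274 to 5304 CPM in WT clones and 3902 CPM in the parental line. SRSF2 itself averaged 499.96 ± 64.1 CPM in P95H clones and 488 ± 28.5 CPM in WT clones (SD, n = 4 each). One library stood apart in the segment: W33 lay above the WT mean with a median of 0.28 (log2) over the 25 tested neighbours and 0.21 over 248 protein-coding genes further out on chromosome 22, while its median over all 18173 genes tested was 0.02. A median over all genes does not show deviations in both directions, and W33 also stood apart at genes of other chromosomes. It had 426 CPM of GATA1, against 216 to 235 CPM in the other WT clones. For TFRC it had 725 CPM, against 1044 to 1289 CPM. The shift is thus not shown to be particular to chromosome 22. Differences of the tested members and the neighbour median are therefore given with and without W33.

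GNB1L (ENSG00000185838) was lower in all P95H clones. It had 16.4, 27.2, 26.8 and 26.1 CPM in P9, P15, P22 and P38, against 46.7, 71.8, 55.6 and 43.6 CPM in W19, W33, W36 and W42. The parental line stood at 56.9 CPM, within the range of the WT clones. P9 was the lowest, the other 3 P95H clones lay between 26.1 and 27.2 CPM, and the highest P95H clone stayed well under the lowest WT clone. The means were 24.1 ± 5.16 CPM in P95H clones and 54.4 ± 12.6 CPM in WT clones (SD, n = 4 each), a log2 difference of -1.17 (SE 0.20) that ran from -1.27 to -1.01 with 1 clone left out and was -1.01 without W33. These values rest on 434 to 885 reads per P95H library and 1192 to 1738 per WT library, so counting error is small beside the spread between clones. In RNA from whole cultures, fewer cells with the transcript and less of it per cell cannot be told apart. KRT8, an epithelial keratin that K562 cells express, was also lower without overlap (log2 -0.87, SE 0.24, edgeR adjusted p = 0.318), at 193, 341, 249 and 416 CPM in P9, P15, P22 and P38, against 486, 752, 518 and 444 CPM in W19, W33, W36 and W42, and it carried most of the summed epithelial and fibroblast markers (198 to 418 CPM in P95H clones, 446 to 762 CPM in WT clones, 2 of 5 markers averaging over 1 CPM, KRT5 at 0). Over all genes tested, 4.29% were lower without overlap. The part of KRT8 in the level of GNB1L was not tested.

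**Figure D1:**
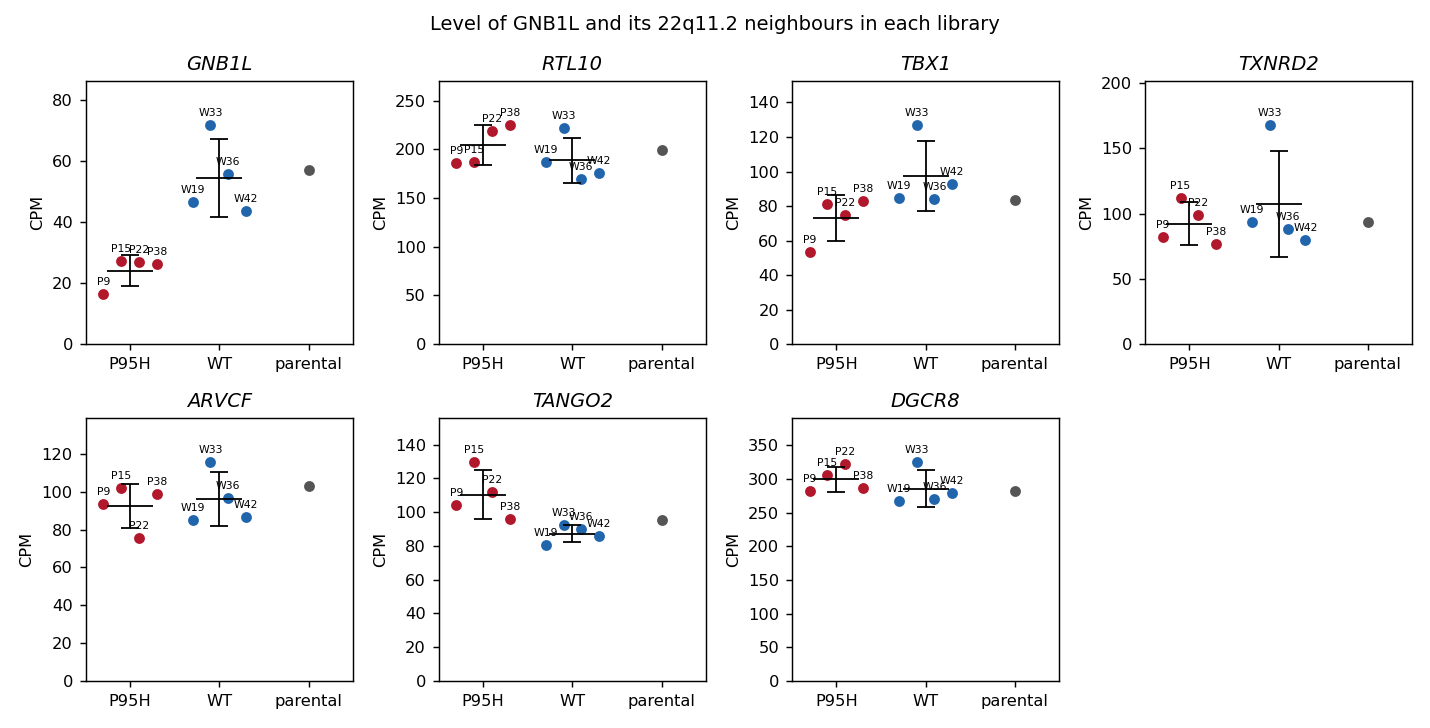
Level in CPM (vertical axes, from 0) of GNB1L, RTL10, TBX1, TXNRD2, ARVCF, TANGO2 and DGCR8 in each library; points are libraries, and long bars with whiskers are the mean and SD of 4 clones. GNB1L lies between 16.4 and 27.2 CPM in P95H clones and between 43.6 and 71.8 CPM in WT clones, while RTL10, ARVCF and DGCR8 overlap between the groups.

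RTL10 (ENSG00000215012), which shares the start of GNB1L, showed no such difference. Its levels were 186, 187, 219 and 225 CPM in P9, P15, P22 and P38, against 187, 222, 169 and 176 CPM in W19, W33, W36 and W42, with 199 CPM in the parental line. The groups overlapped, with W36 and W42 below every P95H clone and P38 just above W33. The means were 204 ± 20.6 CPM in P95H clones and 189 ± 23.4 CPM in WT clones (SD, n = 4 each). The log2 difference of 0.12 (SE 0.12) did not pass edgeR's quasi-likelihood test (adjusted p = 0.715), and it was above 0 in all 17 fits made.

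The ratio of raw counts of GNB1L to RTL10 does not depend on how libraries are scaled. It was 0.0886, 0.146, 0.123 and 0.116 in P9, P15, P22 and P38, against 0.25, 0.323, 0.328 and 0.248 in W19, W33, W36 and W42, and it was 0.287 in the parental line. The highest P95H clone thus lay far below the lowest WT clone. The mean ratio was 0.118 ± 0.0236 in P95H clones and 0.287 ± 0.0445 in WT clones (SD, n = 4 each). As a part of all reads counted in GNB1L and the 25 tested neighbours, GNB1L made up 0.37 to 0.524% in P95H clones, 0.885 to 1.08% in WT clones and 1.01% in the parental line. Because GNB1L was picked for its difference, these ratios carry no test. In GENCODE 29 the 2 genes share 454 exon bases, which are 6.5% of those of GNB1L and 6.67% of those of RTL10.

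**Figure D2:**
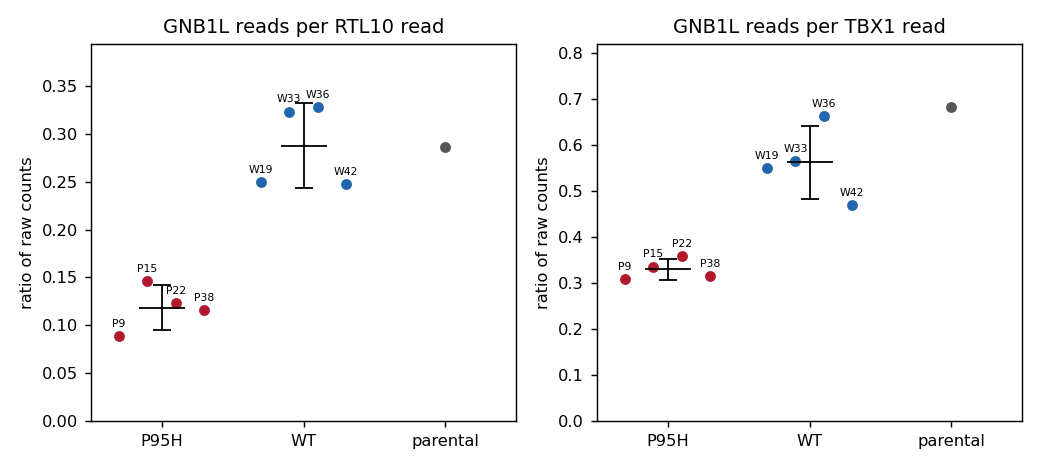
Ratio of raw read counts (vertical axes, from 0) of GNB1L to RTL10 at left and of GNB1L to TBX1 at right; points are libraries, and long bars with whiskers are the mean and SD of 4 clones. The ratio to RTL10 is 0.0886 to 0.146 in P95H clones and 0.248 to 0.328 in WT clones; the ratio to TBX1 is 0.308 to 0.359 in P95H clones and 0.47 to 0.663 in WT clones.

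TBX1 (ENSG00000184058), on the other side, runs towards GNB1L on the opposite strand. It had 53.4, 81.1, 74.8 and 82.7 CPM in P9, P15, P22 and P38, against 84.9, 127, 83.9 and 92.8 CPM in W19, W33, W36 and W42, with 83.3 CPM in the parental line. The groups did not overlap, but P38 and W36 were separated by little, and W33 was highest as it was for GNB1L. The parental line, also wild type for SRSF2, lay between P38 and W36 and so below every WT clone. The means were 73 ± 13.5 CPM in P95H clones and 97.1 ± 20.2 CPM in WT clones (SD, n = 4 each). The log2 difference of -0.41 (SE 0.17) did not pass in edgeR (adjusted p = 0.409), DESeq2 (0.304) or limma-voom (0.299). It was -0.26 without W33 and -0.30 without P9.

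GNB1L was lower than TBX1 by more in P95H clones than in WT clones. The count ratio of GNB1L to TBX1 was 0.308, 0.336, 0.359 and 0.315 in P9, P15, P22 and P38, against 0.551, 0.566, 0.663 and 0.47 in W19, W33, W36 and W42, and it was 0.683 in the parental line. The 2 genes share 280 exon bases at their ends in GENCODE 29, which are 4.01% of GNB1L and 7.82% of TBX1. The library kit does not mark strand, so reads of that stretch cannot be assigned to one of them. Among 16 other T-box genes only 4 passed the filter on low counts (TBX6, TBX18, TBX19 and MGA), and none of the 4 passed the edgeR test between the groups.

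TXNRD2 (ENSG00000184470), the thioredoxin reductase of mitochondria, had 81.8, 112, 99 and 76.7 CPM in P9, P15, P22 and P38, against 93.5, 168, 88.2 and 79.6 CPM in W19, W33, W36 and W42. The groups overlapped, and W33 alone lay above 112 CPM. The log2 difference was -0.21 (SE 0.23, edgeR adjusted p = 0.748) and 0.08 without W33, so its sign rested on that clone. The parental line had 93.6 CPM.

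ARVCF (ENSG00000099889), a catenin of the p120 family that binds cadherins at cell junctions, had 93.8, 102, 75.8 and 99 CPM in P9, P15, P22 and P38, against 85.3, 116, 96.5 and 86.6 CPM in W19, W33, W36 and W42, with 103 CPM in the parental line. The groups overlapped, with P22 lowest and W33 highest. The log2 difference was -0.05 (SE 0.13, edgeR adjusted p = 0.91), and it was 0.05 without W33 and 0.03 without P22.

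DGCR8 (ENSG00000128191), the RNA-binding partner of the nuclease DROSHA in the microprocessor, had 282, 306, 323 and 287 CPM in P9, P15, P22 and P38, against 268, 326, 270 and 280 CPM in W19, W33, W36 and W42, with 282 CPM in the parental line. The groups overlapped, and the 9 libraries differed little. The log2 difference was 0.07 (SE 0.10, edgeR adjusted p = 0.81), and it ran from 0.02 without W19 to 0.13 without W33. Per kilobase of GENCODE 29 exons, DGCR8 had the highest level of the members (40.9 CPM per kb in P95H and 39.1 in WT clones), followed in P95H clones by TBX1 (20.4), ARVCF (16.5), TXNRD2 (11) and GNB1L (3.46), and in WT clones by TBX1 (27.1), ARVCF (17.1), TXNRD2 (12.8) and GNB1L (7.79). GNB1L was thus the least read of the 5 in both groups.

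GP1BB (ENSG00000203618), which encodes the beta chain of the platelet receptor GPIb for von Willebrand factor, had 0 counts in all 9 libraries. In GENCODE 29 it lies at the end of the septin gene SEPTIN5, and 1006 of its 1553 exon bases (64.8%) are also exon bases of SEPTIN5 on the same strand. The overlap in the annotation used for counting was not analysed here, so the 0 sets no limit on GP1BB RNA, and whether GP1BB followed GNB1L cannot be told from these counts. SEPTIN5 stood at 221, 266, 111 and 279 CPM in P9, P15, P22 and P38, against 240, 288, 207 and 201 CPM in W19, W33, W36 and W42. It was lowest in P22, and its log2 difference was -0.09 (SE 0.26) with all clones and 0.12 without P22 (edgeR adjusted p = 0.912 with all clones). Of the partners of GP1BB in the platelet receptor, GP1BA had 1.88 to 3.22 CPM in P95H clones and 0.84 to 2.3 CPM in WT clones, while GP9 and GP5 did not pass the filter on low counts. Megakaryocyte and platelet markers summed to 14.8 to 49.3 CPM in P95H clones and 11.1 to 18 CPM in WT clones, most of it ITGA2B, with PF4 at 0 in every library. Their part in the reads of SEPTIN5 was not tested.

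TANGO2 (ENSG00000183597), a gene named for transport and Golgi organisation and linked in patients to metabolic crises, had 104, 130, 112 and 95.8 CPM in P9, P15, P22 and P38, against 80.8, 92.5, 89.9 and 85.9 CPM in W19, W33, W36 and W42. All P95H clones lay above all WT clones, P38 by the least, and the parental line, at 95.4 CPM, lay above the WT clones as well and just under P38. The log2 difference was 0.34 (SE 0.11) and did not pass in edgeR (adjusted p = 0.337), DESeq2 (0.14) or limma-voom (0.147). It ran from 0.26 to 0.41 with 1 clone left out.

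Along the segment from DGCR6 to DGCR6L, 28 genes other than GNB1L were listed and 25 passed the filter on low counts. GP1BB, PRODH and GSC2 did not. Of the 25, 0 passed the edgeR test, as did 0 of 18173 genes (0%; smallest adjusted p 0.128). DESeq2 called 261 genes (1.44%) and limma-voom 34 (0.187%), and neither called any of the 25. At an unadjusted edgeR p under 0.05 there were 4 lower and 2 higher neighbours, where 11.7% of all genes are past it, 5.65% lower and 6.07% higher. TBX1, ESS2 and ZDHHC8 were among the lower ones, and the higher ones were TANGO2 and CLDN5.

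At 2 neighbours (TBX1 and ZDHHC8) every P95H clone lay below every WT clone, and at 1 (TANGO2) every P95H clone lay above. Over all genes tested the groups were apart in this way at 8.47%, made up of 4.29% lower and 4.19% higher. ZDHHC8, a palmitoyltransferase, had 79.2, 131, 132 and 108 CPM in P9, P15, P22 and P38, against 156, 166, 146 and 146 CPM in W19, W33, W36 and W42 (log2 -0.44, SE 0.16, edgeR adjusted p = 0.347). Its P95H clones all lay below its WT clones, and P9 was the lowest, as for GNB1L. ESS2, a spliceosome-associated protein, averaged a log2 difference of -0.39 (SE 0.15), which was -0.25 without W33. CLDN5, a claudin of tight junctions, had only 1.14 to 1.94 CPM in P95H clones and 0.549 to 1.18 CPM in WT clones.

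With all clones in the fit, GNB1L differed by more than any tested neighbour; RTN4R, which had a single high P95H clone, was at -1.56 without P15. The log2 differences of the 25 lay below 0 at 18 and above 0 at 7, the highest being 0.72 (CLDN5), with a median of -0.14, against -1.17 for GNB1L and 0.01 for the median of all genes tested. Of all genes tested, 47.9% lay below 0. The tilt of the neighbours rested on W33: without that clone their median was 0.0046 and 12 of 25 lay below 0, while GNB1L remained at -1.01. Further along, between ZNF74 and BCR, 21 of 25 listed genes were tested, 12 below and 9 above 0, with a median of -0.04, and SDF2L1, a chaperone cofactor of the endoplasmic reticulum, was the lowest at -0.68 (-0.39 without W33). HIC2, a zinc finger transcription factor of that stretch, had 297, 281, 254 and 254 CPM in P9, P15, P22 and P38, against 247, 220, 242 and 227 CPM in W19, W33, W36 and W42, with no overlap (log2 0.22, SE 0.10, edgeR adjusted p = 0.428). Over all genes tested, 4.19% were higher in this way. PI4KA, a phosphatidylinositol 4-kinase, was at 0.39 (SE 0.13, edgeR adjusted p = 0.347), above 0 in all 17 fits, with 376 to 571 CPM in P95H clones and 331 to 401 CPM in WT clones. BCR itself was at 0.06 (SE 0.14).

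**Figure D3:**
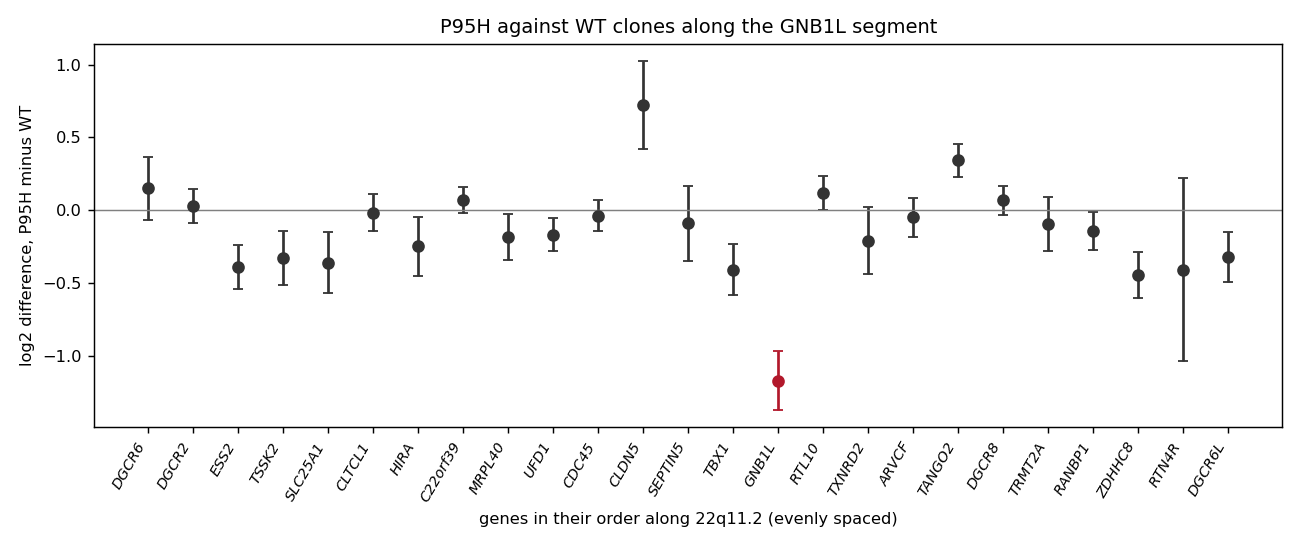
Log2 difference between P95H and WT clones (vertical axis; points are edgeR estimates, bars their SE, 4 clones a group) for GNB1L and the tested neighbours that are reported, evenly spaced in their order on the chromosome. GNB1L at -1.17 lies apart from the neighbours on both its sides, TBX1 at -0.41 and RTL10 at 0.12.

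Clone by clone, the neighbours did not share one pattern. Relative to the WT mean, GNB1L was at -1.70, -0.97, -0.99 and -1.03 in P9, P15, P22 and P38 on the log2 scale, while the median of the 25 neighbours was -0.29, 0.02, -0.07 and -0.12. In WT clones the neighbour median was -0.05 in W19, 0.28 in W33, -0.08 in W36 and -0.16 in W42, so that P15, P22 and P38 fell within the WT range and only P9 lay below it. In P9 the median was -0.14 for the genes between ZNF74 and BCR and -0.08 for the rest of chromosome 22 beyond BCR. No neighbour was lower than GNB1L in P9 or P15. In P22 there were 2 and in P38 there was 1, and RTN4R, the Nogo receptor, at under 5 CPM in every library, was the lowest neighbour in both. In P22 SEPTIN5 was also below GNB1L on this scale.

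**Figure D4:**
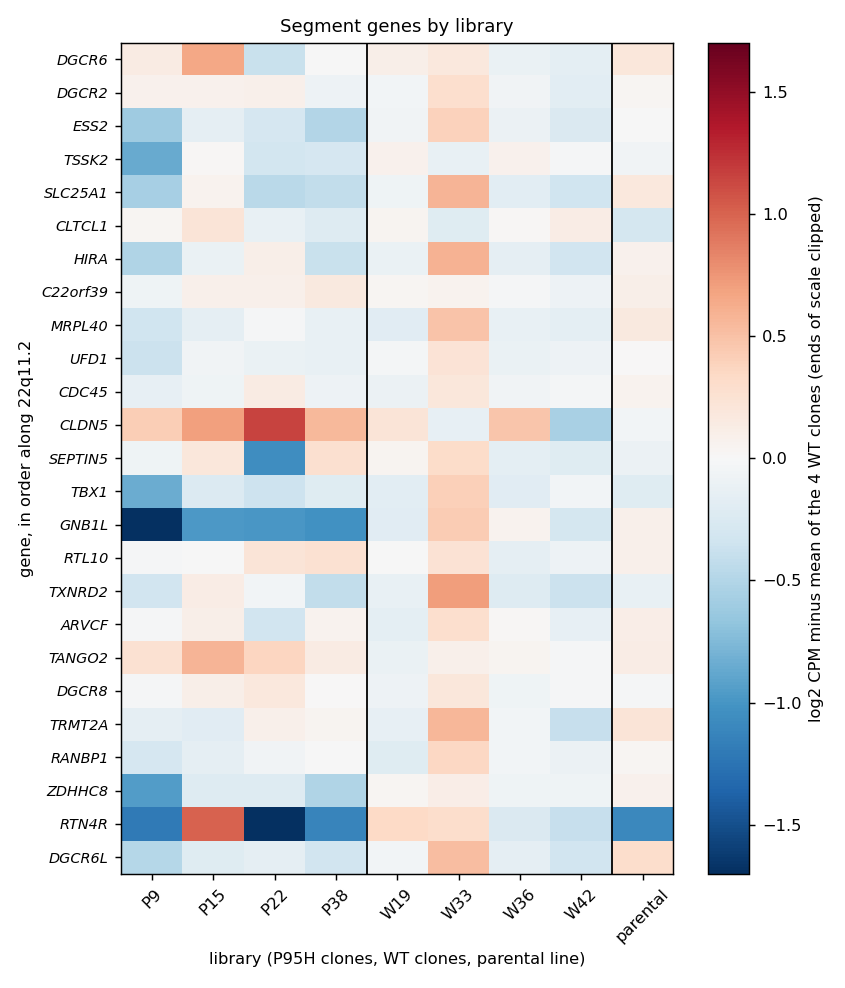
Log2 CPM of each gene minus the mean of the 4 WT clones (colour, blue lower and red higher), with genes down the page in chromosome order and libraries across. GNB1L is blue in all 4 P95H clones (-1.70 to -0.97), W33 is red for most genes, and RTL10, next to GNB1L, is near 0 or above it in all P95H clones; the colour scale ends at 1.7 either way, and RTN4R in P22 (-2.28) lies beyond it.

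In the parental line GNB1L differed from the WT clones by 0.06 on the log2 scale (SE 0.32), with an edgeR adjusted p that rounds to 1. The differences of the other tested members were -0.22 for TBX1, -0.20 for TXNRD2, 0.10 for ARVCF and -0.02 for DGCR8, and 0 of 18173 genes (0%) passed, with 242 (1.33%) at an unadjusted p under 0.05 and 4 called by DESeq2. This comparison uses the same WT clones as that of the P95H clones and has 1 parental library, which the fit assumes to vary like the clones. Over the 25 neighbours the median parental difference was 0.02.

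Among 11970 other genes that averaged 5 CPM or more, those with a pattern closest to GNB1L over the 9 libraries lay on other chromosomes. The segment supplies few of the genes ranked, so this does not tell whether the neighbours follow GNB1L. Closeness was the root mean square difference of log2 CPM after each gene was centred on its own mean, a measure on which the median gene stood at 0.68. The nearest were C6orf52 on chromosome 6 (0.13), RPP25, a protein subunit of ribonuclease P, on chromosome 15 (0.20), EGFL7, a secreted protein of blood vessels, on chromosome 9 (0.23), CFD, complement factor D, on chromosome 19 (0.24) and KREMEN2, a receptor of the Wnt antagonist DKK1, on chromosome 16 (0.24). C6orf52 had 2.16, 4.05, 3.28 and 3.02 CPM in P9, P15, P22 and P38, against 5.4, 8.62, 6.5 and 5.41 CPM in W19, W33, W36 and W42, with 8.26 CPM in the parental line. It shared with GNB1L the lowest value in P9 and the highest in W33. Of the segment, ZDHHC8 ranked 121st (0.39) and TBX1 321st (0.44), while TXNRD2, ARVCF, DGCR8, RTL10 and TANGO2 ranked 2586th or lower. The measure uses the difference between the groups, so these genes were bound to be lower in P95H clones.

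**Figure D5:**
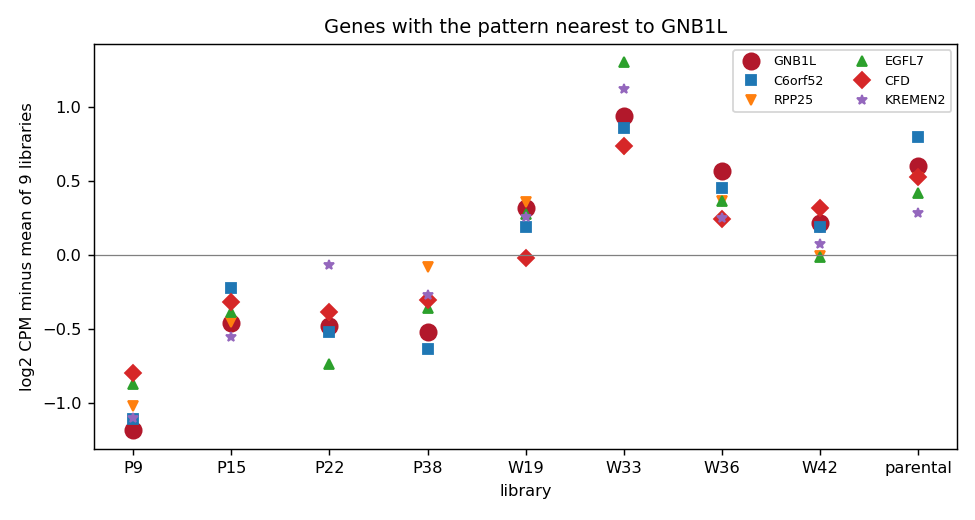
Log2 CPM minus the mean of the 9 libraries (vertical axis) by library (horizontal axis) for GNB1L (large red circles) and the 5 genes nearest to it. In all 6 genes P9 is the lowest library and W33 lies above every P95H clone.

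Genes that work with the members were taken from lists of known pathway members. A list of 9 genes held the TELO2 complex and its R2TP partner, which GNB1L has been linked to, and the chaperones HSP90AA1 and HSP90AB1. Of the 9, 0 passed the edgeR test. Below 0 lay 8, where 47.9% of all genes tested lay below 0, and the median log2 difference was -0.10. TELO2 was at -0.11 (SE 0.19), TTI1 at 0.18 (SE 0.12) and TTI2 at -0.09 (SE 0.10). W33 was the highest WT clone at TELO2, RUVBL1, RUVBL2, PIH1D1 and HSP90AB1, and the lowest at TTI1, RPAP3 and HSP90AA1. At TELO2 it had 111 CPM, against 62.8 to 69.6 CPM in the other WT clones. How far the count of 8 rests on W33 was not tested. RUVBL2, an ATPase of the complex, had 200, 225, 246 and 231 CPM in P9, P15, P22 and P38, against 276, 465, 294 and 270 CPM in W19, W33, W36 and W42, with no overlap. Its log2 difference of -0.53 (SE 0.17, edgeR adjusted p = 0.335) was -0.31 without W33. Over all genes tested, 4.29% were lower with no overlap.

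The 6 large kinases that this machinery serves had a median of 0.16, and 0 passed. ATM was at -0.30 (SE 0.23), ATR at -0.14 (SE 0.14), MTOR at 0.27 (SE 0.17), PRKDC at 0.28 (SE 0.15), SMG1, the kinase of nonsense-mediated decay, at 0.20 (SE 0.15) and TRRAP at 0.12 (SE 0.16). W33 was the lowest WT clone at all 6. At MTOR it had 96.3 CPM, against 149 to 164 CPM in the other WT clones and 141 to 186 CPM in P95H clones. At TRRAP it had 49.7 CPM, against 74.2 to 80.5 CPM in the other WT clones and 66 to 86.4 CPM in P95H clones. How far the median of 0.16 rests on W33 was not tested. These are RNA levels, and the amount of kinase protein was not measured. The G protein beta subunits GNB1 to GNB5 had a median of 0.06, with 0 of 5 past the test; GNB1 averaged 0.04 (SE 0.14).

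Among 10 genes of microRNA processing, which include DROSHA, the partner of DGCR8, 0 passed. DROSHA was at 0.07 (SE 0.09) and DICER1 at 0.07 (SE 0.20). The helicase DDX17 had 409 to 451 CPM in P95H clones and 292 to 388 CPM in WT clones (log2 0.27, SE 0.11, edgeR adjusted p = 0.406), and RAN, the GTPase of nuclear export, 537 to 696 CPM in P95H clones and 698 to 779 CPM in WT clones (log2 -0.27, SE 0.10, adjusted p = 0.37). Neither pair of ranges overlapped, as was so at 8.47% of all genes tested. Without W33, the lowest WT clone at DDX17 with 292 CPM, the DDX17 difference was 0.18. The thioredoxin system around TXNRD2 had 8 of 9 genes tested, a median of -0.13 and 0 past the test. Of the 8, 7 lay below 0, as did 47.9% of all genes tested. W33 was the highest WT clone at TXN, TXN2, TXNRD3, PRDX1, PRDX2 and PRDX5, and the lowest at TXNRD1 and PRDX3. At PRDX2 it had 455 CPM, against 211 to 261 CPM in the other WT clones. How far the count of 7 rests on W33 was not tested. PRDX1, a peroxiredoxin, ranged over 456 to 715 CPM in P95H clones, lowest in P9, against 747 to 891 CPM in WT clones (log2 -0.29, SE 0.15, adjusted p = 0.467), and -0.17 without P9. Of the p120 catenins and cadherin partners of ARVCF, 4 of 7 were tested, with a median of 0.08 and 0 past the test, and CDH1 and CDH2 did not pass the filter.

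The segment also holds microRNA genes whose mature sequences, from RefSeq (GRCh38.p14), are shown because their hairpins lie inside DGCR8 and TANGO2 and are cut out by the complex that DGCR8 belongs to. Capitals mark the seed, bases 2 to 8.

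hsa-miR-3618: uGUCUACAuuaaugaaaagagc
hsa-miR-1306-5p: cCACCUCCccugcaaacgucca
hsa-miR-1306-3p: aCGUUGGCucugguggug
hsa-miR-185-5p: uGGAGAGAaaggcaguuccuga
hsa-miR-185-3p: aGGGGCUGgcuuuccucugguc

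Those of miR-3618 and miR-1306 lie in exons of DGCR8 in GENCODE 29, and that of miR-185 lies within TANGO2, outside its exons. None of the 5 seeds is shared with another. MIR185 had 0 reads over the 9 libraries, which hold polyadenylated RNA and do not measure mature microRNAs, so no value of the microRNAs themselves can be set beside those of TANGO2 and DGCR8.

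SRSF2 binds exonic RNA at the words CCNG and GGNG, and P95H is known to favour the first over the second. In the longest protein-coding GENCODE 29 transcript, GNB1L had 35.9 CCNG and 30.9 GGNG per kilobase, a ratio of 1.16 that exceeds that of 63.3% of 12239 tested genes. The ratio was 1.32 in RTL10, 1.23 in TANGO2 and 2.1 in TBX1, which exceeds 98.8% of genes. It was 0.807 in TXNRD2, 0.976 in ARVCF and 0.964 in DGCR8. GNB1L thus stood between TANGO2 and ARVCF in this respect. The counts are per gene and do not resolve the 6 transcripts annotated for GNB1L, of which 4 are protein-coding and 0 are marked as substrates of nonsense-mediated decay.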

How the data were processed

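Per the labels' protocols, polyadenylated RNA was selected from total RNA, prepared with a TruSeq kit that does not mark strand and sequenced on a HiSeq2000. Each library was deposited as whole-number counts of reads by Ensembl gene ID. The submitters' processing notes name GRCh37 as the build and, as tools, HTSeq 0.6.1p1, TopHat2 2.0.4 and bcl2fastq; how overlapping genes and strand were handled is not stated there. The 5 summary entries at the end of each list stayed out of library sizes and tests: 47.6 to 49.1% of reads were in no gene, 2.24 to 2.55% were ambiguous and 43.3 to 44.2% were in genes.

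Symbols matched 52526 of 63677 gene IDs. Gene order, exon lengths and overlaps came from GENCODE 29 (GRCh38) by gene ID; promoter and microRNA sequences came from RefSeq (GRCh38.p14) by symbol. No coordinate was used with the counts.

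P95H and WT clones were compared with edgeR 4.0.16 in R 4.3.3 (filterByExpr, TMM, robust quasi-likelihood F test) over 18173 genes, with Benjamini-Hochberg adjustment at 0.05. The parental line was compared with WT clones in a 3-group fit. The biological coefficient of variation was 26.3%. Log2 CPM used a prior count of 2. The alternatives tried were DESeq2 1.42.0, limma-voom (limma 3.58.1) with quality weights, scaling by RLE or upper quartile, dropping the filter or requiring 1 CPM in 4 libraries, a 3-group fit, each clone left out, and W33 and P22 left out. In simulated P95H and WT data over 18173 genes, edgeR recovered 40 of 100 genes changed 2-fold and 87 of 100 changed 4-fold, with 8 false calls. Each gene was drawn independently, without shifts shared by many genes of a clone, so recovery in the real clones may differ.

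Genes named were the members, RTL10 and TANGO2, in each list those past the threshold, without overlap or of the 3 smallest p at a mean of at least 1 CPM, and the 5 nearest patterns. Examples beyond that rule were chosen after their values were seen. The members and lists were chosen with earlier results of these data known. Values of 1 neighbour are not reported here, though it stays in the counts and medians.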

Additional observations from a re-analysis of the deposited data

Results flagged for a closer look

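Among 26 genes of the segment with a mean of at least 1 CPM, 52 groups of 4 clones were searched for a single clone far from the other 3, and 5 were found; at the 95% critical value of Dixon's test chance gives about 1 in 20 groups, and these groups share clones, with W33 found at 2 genes. GNB1L in P9 stood at 16.4 CPM, against 26.1 to 27.2 CPM in the other P95H clones. TXNRD2 in W33 stood at 168 CPM, against 79.6 to 93.5 CPM in the other WT clones, and MRPL40, a mitochondrial ribosomal protein, at 406 CPM in W33, against 254 to 266 CPM. DGCR2, an adhesion receptor protein, stood at 213 CPM in P38, against 240 CPM in each of the other P95H clones, to 3 digits. RTN4R stood at 4.42 CPM in P15, against 0.394 to 0.962 CPM in the other P95H clones, and without P15 its log2 difference was -1.56 in place of -0.41.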

How the results depend on the processing

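GNB1L stayed lower in P95H clones under all 16 alternatives. It was picked for its fall and its groups do not overlap, so its sign was all but fixed and adds no support. TBX1 also stayed lower under all 16, without passing the test under any of them (adjusted p 0.299 to 0.655). The number of genes called in P95H against WT clones was 0 in edgeR, with 2130 at an unadjusted p under 0.05. It was 2 with no filter, 261 with DESeq2, 34 with limma-voom and 5 without W33 and P22. With 1 clone left out it was 0 to 1 (1 without W19). In the comparison of the parental line with WT clones, the number called was 5 with no filter and 4 with DESeq2. The sign of ARVCF turned to 0.0269 with limma-voom and 0.137 without W33 and P22, and ran from -0.116 to 0.0492 with 1 clone left out; that of TXNRD2 was 0.0545 without W33 and P22 and ran from -0.341 to 0.0848. The cause was not tested. With 1 clone left out the median of the neighbours ran from -0.21 to 0.0046, and it was -0.03 with limma-voom and without W33 and P22. In the parental comparison, with 1 clone left out, GNB1L ran from -0.0347 to 0.218 (below 0 without W19 or W42), TXNRD2 from -0.323 to 0.0958 and DGCR8 from -0.0607 to 0.0408, the last 2 above 0 without W33. No paired analysis was possible because the clones of the groups share no replicate numbers. With 4 clones a group and the spread seen here, changes of 2-fold are often missed, so a neighbour that did not pass is not shown to be unchanged.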

Other observations

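PRODH, the first enzyme of proline breakdown, near the start of the segment, was below the filter and is named after its counts were seen: it had 7, 23, 6 and 5 reads in P9, P15, P22 and P38, against 2, 3, 3 and 2 reads in W19, W33, W36 and W42, with 8 in the parental line. The WT values are at or under the floor of 3 counts, so no fold is given.

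RPL7AP70, a processed pseudogene that lies within the span of GNB1L on the other strand, had 94.2 to 131 CPM in P95H clones and 76.7 to 147 CPM in WT clones (log2 0.18, SE 0.19). As a copy of a ribosomal protein gene its reads are uncertain.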
